A study of Homo sapiens with 12 samples.

Results

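Histone genes encode the proteins around which DNA is wound. In the table deposited for Huh7 cells they were taken as every row whose gene symbol starts with a histone family name, with rows described as pseudogenes left out. Of 60666 listed genes, 134 symbols matched, 39 of them were pseudogenes, and 95 were kept. The C-numbered names, which the genes of the large histone clusters carry, made up 60 of the 95. The other 35, counted as replacement genes by name, were of 3 kinds. They held 11 cluster-type genes with other names (H1-1 to H1-6, H2AW, H2BU1, H3-4, H4-16 and H2BS1), 21 replacement genes proper, and 3 non-coding RNAs named after a neighbouring histone gene (H1-10-AS1, H2AZ1-DT and H3-3A-DT). Of the cluster-type genes, H4-16 lies on chromosome 12 and H2BS1 on chromosome 21, outside the clusters.

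Huh7 is an established human hepatocellular carcinoma (HCC) line. RNA was sequenced from Huh7 control cells and from Huh7 cells with FAM111B knockdown (shFAM111B cells), with 3 libraries per group. Both were stable lines made with lentivirus and selected with puromycin, the knockdown line with an shRNA against FAM111B, a serine protease gene. Nothing in the labels says that the libraries of a group came from separate cultures, so the p-values measure only the spread between these libraries, which may be technical. FAM111B itself was at 7.84, 8.29 and 7.99 TPM (a transcript abundance corrected for length) in the control libraries and at 0.96, 1.13 and 0.84 TPM in the shFAM111B libraries, a log2 fold change of -2.20 ± 0.113 (SE, adjusted p = 6.09e-06, limma). The Hep3B libraries of the series were not analysed here.

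Histone genes fall into classes by how their RNA is made. The clustered genes, on chromosome 6 and chromosome 1, are copied mainly in S phase, when new DNA has to be packed. Their mRNAs end after a short stem-loop instead of a poly(A) tail, and the stem-loop binding protein SLBP carries them through processing and translation. Replacement genes mostly lie alone and carry introns in many cases. They make polyadenylated mRNA throughout the cell cycle and encode variants such as H2A.Z, H3.3 and macroH2A. In proliferating cancer cells the clustered genes supply most of the core histones, while H2AJ is known for its rise in cells that have stopped dividing.

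The stem-loop is shown here because it is the feature that sets the RNA of one class apart. It was searched, by its 16-base consensus, on the sense strand of the spliced GENCODE v29 transcripts. Among 19684 genes with protein-coding transcripts it was found in 35, or 0.178%, and 32 of these were histone genes of the set. They were 27 of the 58 clustered genes with a GENCODE transcript, 4 of the 11 other cluster-type genes (H2AW, H2BU1, H3-4 and H4-16) and 1 of 21 replacement genes, H2AX. In 26 of the 58 clustered genes every transcript model stops at the coding sequence, so that the part that would hold the stem-loop is not in the model. The lines below give 1 gene for each form of the 16 bases, in capitals, with up to 5 bases of flank on each side.
H2AC19: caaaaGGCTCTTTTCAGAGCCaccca
H2BC5: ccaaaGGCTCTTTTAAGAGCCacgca
H2AC11: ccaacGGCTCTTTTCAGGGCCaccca
H4C8: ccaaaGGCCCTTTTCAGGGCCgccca
H4C15: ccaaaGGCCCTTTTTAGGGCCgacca
H2AX: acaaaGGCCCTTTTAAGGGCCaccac
The form of H2AC19 was the commonest, with 17 genes of the H2A, H2B and H3 families. The forms of H4C8 and H4C15 were found in 5 and 3 genes, all of the H4 family, the form of H2BC5 in 5 genes of the H2B and H3 families, and those of H2AC11 and H2AX in 1 gene each.

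Many clustered H2A and H2B genes stand head to head and share the sequence between their start sites. Of 13 head-to-head pairs with start sites under 500 bases apart, 6 had both genes tested, each an H2A and an H2B gene. The 13 include H3-3A and H2AZ1 with their non-coding RNAs, and count H2BC7 both with H2AC7 and with H3C4, which have the same start site. The start-to-start sequences of a pair in which both genes rose and of a pair in which 1 did are given with the 120 bases before the start of H1-2, the cluster-type gene with the highest level after H2BC12, and of H2AJ, the 1 replacement gene proper that passed a 2-fold change. The bases are from RefSeq promoter windows (GRCh38.p14), and capitals mark the CCAAT box (CCAAT), the TATA box (TATAAA) and the H1 box (AAACACA) on either strand. The pair H2BC8 and H2AC8 is at chr6:26216689-26216920 (plus strand), H2BC11 and H2AC11 at chr6:27132796-27133042 (plus strand), H1-2 at chr6:26056471-26056590 (minus strand) and H2AJ at chr12:14774285-14774404 (plus strand).
H2BC8 and H2AC8: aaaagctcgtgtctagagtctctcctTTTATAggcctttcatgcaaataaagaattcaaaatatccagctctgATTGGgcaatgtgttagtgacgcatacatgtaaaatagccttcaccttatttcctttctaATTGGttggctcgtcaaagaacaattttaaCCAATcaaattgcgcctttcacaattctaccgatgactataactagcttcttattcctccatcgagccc
H2BC11 and H2AC11: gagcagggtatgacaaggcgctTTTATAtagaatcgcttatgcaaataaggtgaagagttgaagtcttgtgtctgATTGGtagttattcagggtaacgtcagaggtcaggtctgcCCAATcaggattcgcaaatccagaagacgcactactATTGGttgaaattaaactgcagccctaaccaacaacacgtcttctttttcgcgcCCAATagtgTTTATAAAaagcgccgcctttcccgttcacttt
H1-2: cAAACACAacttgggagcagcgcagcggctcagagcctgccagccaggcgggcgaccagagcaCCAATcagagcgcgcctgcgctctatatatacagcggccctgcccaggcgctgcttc
H2AJ: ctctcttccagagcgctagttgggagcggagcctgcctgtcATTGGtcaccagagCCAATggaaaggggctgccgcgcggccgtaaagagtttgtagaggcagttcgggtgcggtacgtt
In the 250 bases before the start (either strand), CCAAT was found in 46 of 55 clustered, 7 of 7 other cluster-type and 15 of 17 replacement genes, against 32.0% of all 35116 promoters. A gene was counted if any of its promoters held the match, whereas the shares of all promoters are over single promoters. TATAAA was found in 39, 4 and 5 of these genes, against 10.7% of all promoters. The H1 box was found in 0 of 55, 6 of 7 and 2 of 17, against 4.8%. A match is a run of letters and no evidence that a factor binds there.

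The deposited values are TPM, which divide the reads of a gene by its length and scale them to a fixed total, and the depth behind them is unknown. Levels of different genes are set side by side as listed, although poly(A) selection, the length of the transcript model and shared sequence can bear on them. A gene entered the test when 3 or more libraries listed it at 1 TPM or above (14394 genes). Log2(TPM + 1) was compared with limma, which understates the fold change of low genes, and p-values were adjusted over all tested genes (Benjamini-Hochberg). A gene is said to have risen or fallen at an adjusted p under 0.05, and it is called where its fold change also reached the study's limit of 2 at P under 0.05. Over all tested genes 6.82% were called higher and 23.7% lower in shFAM111B cells, and 21.1% rose and 50.9% fell. The median tested gene had a log2 fold change of -0.36, and this median lay between -0.49 and 0.17 under the other scalings tried, so the values of single genes are to be read against it.

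Beside the histone genes, the libraries differed in other ways. Mitochondrially encoded genes summed to 199635 ± 3030 TPM in control cells and 76315 ± 2860 TPM in shFAM111B cells (SD, n = 3 each). RNA genes without a poly(A) tail (5S and 5.8S ribosomal, snRNA, 7SK, 7SL, RMRP, RPPH1, snoRNA and Cajal body RNA genes) summed to between 1086 and 3647 TPM in the control libraries, and to 31741, 53812 and 4217 TPM in shFAM111B replicates 1 to 3. All 11 hepatocyte markers listed were tested, with ALB between 3988 and 6492 TPM, while the 5 fibroblast, 5 immune and 4 endothelial markers summed to 8.91 to 17.7, 280 to 343 and 1.26 to 3.49 TPM, the immune sum being mostly LYZ. The TPM of libraries correlated at 0.969 to 0.984 within groups and at 0.865 to 0.883 between groups over the tested genes on the log2 scale.

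Of the 95 histone genes, 55 passed the filter. They were 41 of the 60 clustered genes, 4 of the 11 other cluster-type genes and 10 of the 21 replacement genes proper, and none of the 3 non-coding RNAs. Of the clustered genes, 13 were called higher and none lower, 21 rose and none fell by limma, and 22 had every shFAM111B library above every control library, against 22.5% of all tested genes so ordered and 52.8% in the opposite order. The shares of all tested genes were 6.82% called higher, 23.7% called lower, 21.1% risen and 50.9% fallen. Without the adjustment the count of clustered genes below 0 at P under 0.05 was also 0. Their median log2 fold change was 0.64, which is 1.01 above the median tested gene, and ran from -0.48 to 2.85. Of the called ones, H2BC9, H3C14 and H3C15 had every control library under 1 TPM. They entered the test only through the shFAM111B libraries and could not have been called lower. With 1 TPM asked of every library, 9 clustered genes were called higher. The 10 replacement genes proper had 1 called higher and none lower, 7 that rose and 3 that fell, with a median of 0.37 and a range from -0.49 to 1.28. The 1 of 10 called higher is near the 6.82% of all tested genes. By the name rule alone, the 14 tested replacement genes had 2 called higher, 9 that rose and 3 that fell, since H1-2 and H2AW then count with them. In all, 51 of the 55 tested histone genes lay above the median tested gene, and 34 of 53 when a trend of the fold change with transcript length and expression over all genes was removed. Over all the fits tried, the median of the clustered genes ran from 0.26 to 1.18 and that of the replacement genes proper from 0.21 to 0.91. With that trend removed the order of the medians turned, at 0.26 for the clustered genes and 0.38 for the replacement genes proper.

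**Figure D1:**
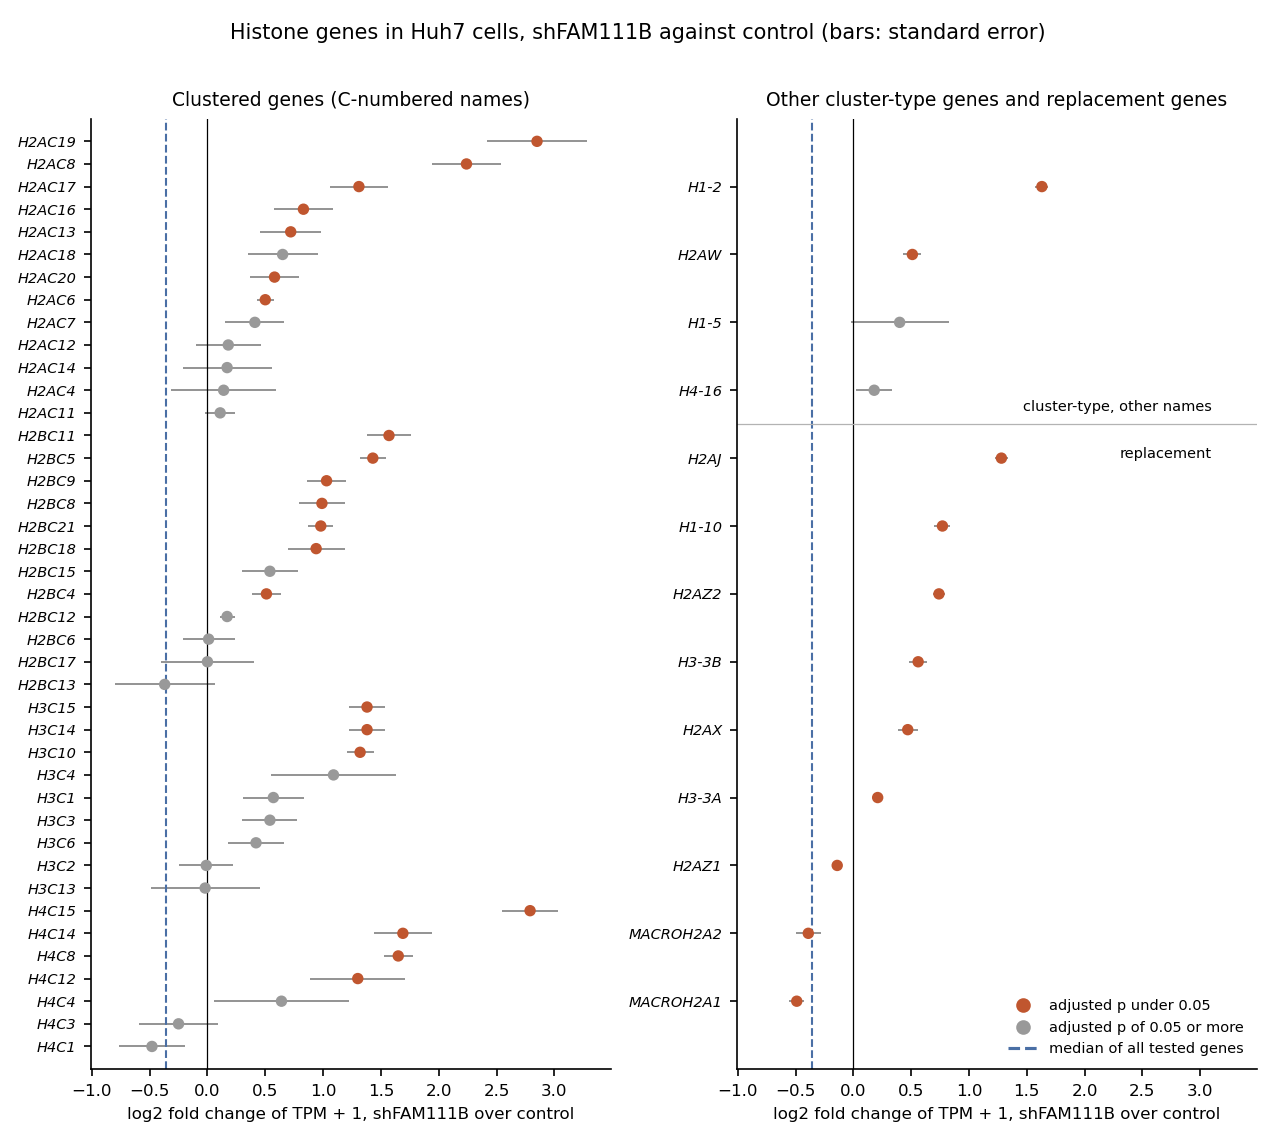
Log2 fold change of TPM + 1 (horizontal axis, shFAM111B over control) of 54 of the 55 tested histone genes with its standard error, clustered genes on the left by family and the others on the right. Orange points passed an adjusted p of 0.05, and the dashed line at -0.36 is the median of all tested genes. The 21 clustered genes that passed all lie to the right of 0, and among the genes on the right H2AZ1, MACROH2A2 and MACROH2A1 lie to the left.

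Linker histone H1 genes, whose proteins bind the DNA between nucleosomes, were led by H1-2. It was at 162.59, 159.41 and 165.03 TPM in control libraries and at 500.79, 471.78 and 538.65 TPM in shFAM111B libraries, a 3.1-fold difference of mean TPM. The groups lay far apart and the libraries within each close together. The log2 fold change was 1.63 ± 0.0561 (SE, adjusted p = 2.55e-06). With that trend removed, H1-2 remained higher at 0.69 but under the 2-fold limit. H1-2 lies at chromosome 6, 26055787 to 26056428, on the minus strand, and no 50-base stretch of its transcript occurs in another gene. The other cluster-type linker genes were low: H1-5 was between 0.16 and 2.33 TPM in the 6 libraries with overlapping groups (0.40 ± 0.423, adjusted p = 0.423), and H1-1, H1-3, H1-4 and H1-6 did not pass the filter. H1-4 averaged 0.72 TPM in control and 1.10 TPM in shFAM111B cells. The replacement linker H1-10 rose from 27.83, 29.85 and 30.06 TPM to 51.84, 46.85 and 53.38 TPM (0.77 ± 0.0696, adjusted p = 5.79e-05).

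Among clustered H2A genes, H2AC18 and H2AC19 had the highest levels. These are an inverted pair on chromosome 1 (149842188 to 149842736 on the minus strand and 149851061 to 149851624 on the plus strand), and 100% and 97.1% of the 50-base stretches of their transcripts occur in another gene, so reads cannot be placed between them with certainty. H2AC19 was at 14.18, 45.04 and 44.18 TPM in control and 293.20, 224.59 and 176.53 TPM in shFAM111B libraries (2.85 ± 0.436, adjusted p = 0.000836). H2AC18 was at 98.51, 70.32 and 71.69 TPM in control and 79.96, 126.94 and 190.88 TPM in shFAM111B libraries, with overlapping groups (0.65 ± 0.302, adjusted p = 0.091), although it passed without shFAM111B replicate 1 (0.97) and turned to -0.52 with the length trend removed. The share given to H2AC19 ran from 12.6% to 39.0% in control and from 48.0% to 78.6% in shFAM111B libraries. The sum of both was even within groups, at 112.69, 115.36 and 115.87 TPM and at 373.16, 351.53 and 367.41 TPM. Fitted as 1 row, it had a log2 fold change of 1.66 ± 0.0424 (adjusted p = 1.5e-06).

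**Figure D2:**
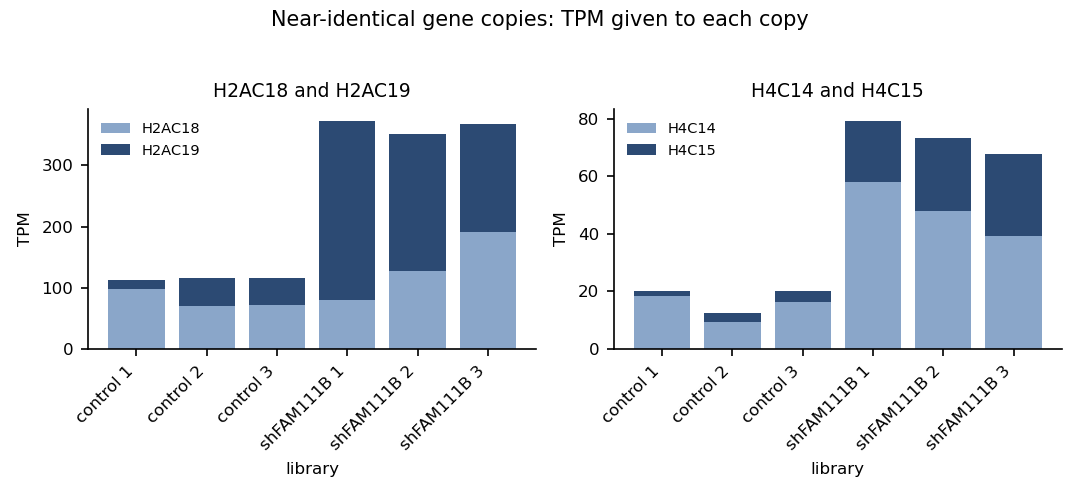
TPM (vertical axis) of near-identical gene copies in each of the 6 libraries, stacked by copy. The split of H2AC18 and H2AC19 varied between libraries, whereas their sum stayed between 112.69 and 115.87 TPM in control and between 351.53 and 373.16 TPM in shFAM111B libraries; H4C14 and H4C15 are drawn in the same way.

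The other H2A genes split into some that rose by more than the limit and some that did not. H2AC8 was at 2.03, 5.13 and 2.00 TPM in control and 21.09, 15.61 and 14.96 TPM in shFAM111B libraries (2.24 ± 0.295, adjusted p = 0.000388), with no 50-base stretch shared with another gene. H2AC17 went from 2.86, 1.25 and 2.83 TPM to 8.40, 7.30 and 5.50 TPM (1.31 ± 0.249, adjusted p = 0.00248), but 86.3% of its stretches are shared, mainly with the overlapping H3C12. H2AC6, whose annotated transcripts include long polyadenylated forms, rose from 55.14, 57.38 and 65.82 TPM to 82.84, 87.85 and 82.19 TPM, well under 2-fold (0.50 ± 0.0754, adjusted p = 0.00077). H2AC20 was at 13.89, 7.56 and 12.21 TPM and at 14.29, 18.86 and 17.49 TPM (0.58 ± 0.215, adjusted p = 0.0438). This last call was lost without any 1 of control replicates 2 and 3 and shFAM111B replicates 2 and 3 (0.34 to 0.65), and the sign turned with the length trend removed (-0.77). H2AC13 and H2AC16, named here after their values were seen, also rose, by 0.72 and 0.83. Each did not pass when 1 library was left out (H2AC13 without control replicate 2 or 3 or shFAM111B replicate 1 or 3, H2AC16 without shFAM111B replicate 1 or 2). With the length trend removed neither passed, at 0.19 for H2AC13 and -0.19 for H2AC16. The remaining tested C-numbered H2A genes (H2AC4, H2AC7, H2AC11, H2AC12 and H2AC14) had log2 fold changes of 0.11 to 0.41 and did not pass. Of the 50-base stretches of H2AC7 and H2AC14, 98.0% and 83.7% occur in another gene, as do 62.3% of those of H2AC13. H2AW, a cluster-type H2A gene on the long arm of chromosome 1, rose from 46.50, 39.65 and 46.86 TPM to 62.62, 61.23 and 66.51 TPM (0.51 ± 0.0785, adjusted p = 0.00085), or -0.07 with the length trend removed.

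Of the H2B genes, H2BC12 had the highest level of all clustered genes, and whether it passed an adjusted p of 0.05 depended on the scaling. It was at 556.96, 508.03 and 531.05 TPM in control and 591.56, 646.91 and 558.09 TPM in shFAM111B libraries. The highest control library, at 556.96 TPM, lay just under the lowest shFAM111B library, at 558.09 TPM. Its log2 fold change of 0.17 ± 0.0653 just missed the threshold (adjusted p = 0.0509), passed without shFAM111B replicate 3 (0.22) and with 1 TPM asked of every library (0.17). It also passed with median-of-ratios scaling (0.62), upper-quartile scaling (0.58) and the median subtracted (0.70), and turned to -0.26 under quantile normalization and -1.12 with the length trend removed. Of its 50-base stretches, 74.1% occur in another gene, most of them in H2BS1, which was listed at 0 to 0.41 TPM. H2BC12 took 61.0 ± 1.36% of the summed TPM of the clustered genes in control and 41.1 ± 1.89% in shFAM111B cells.

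H2BC5, also on chromosome 6, rose from 37.63, 45.85 and 50.55 TPM to 120.69, 113.99 and 129.68 TPM (1.43 ± 0.11, adjusted p = 2.82e-05). It fell under the 2-fold limit with the length trend removed (0.68). H2BC11 rose from 10.30, 11.44 and 11.12 TPM to 47.52, 27.13 and 31.88 TPM (1.57 ± 0.19, adjusted p = 0.00025). In both genes every shFAM111B library lay above 2 times the highest control library. H2BC4 rose from 8.73, 8.43 and 7.76 TPM to 14.37, 10.53 and 11.99 TPM (0.51 ± 0.122, adjusted p = 0.00769), and turned to -0.25 with the length trend removed. H2BC9 rose from 0.84, 0.40 and 0.46 TPM to 2.17, 1.86 and 2.50 TPM (1.03 ± 0.167, adjusted p = 0.00113) and fell under the 2-fold limit without control replicate 2 or 3 or shFAM111B replicate 3. The control values of H2BC9 all lay under 1 TPM, so it entered the test only through the shFAM111B libraries. It could thus not have been called lower. Just under the 2-fold limit lay H2BC8, H2BC21 and H2BC18, named after their values were seen, which rose by 0.99, 0.98 and 0.94. H2BC6, H2BC13, H2BC15 and H2BC17 did not pass and had values of -0.37 to 0.54.

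**Figure D3:**
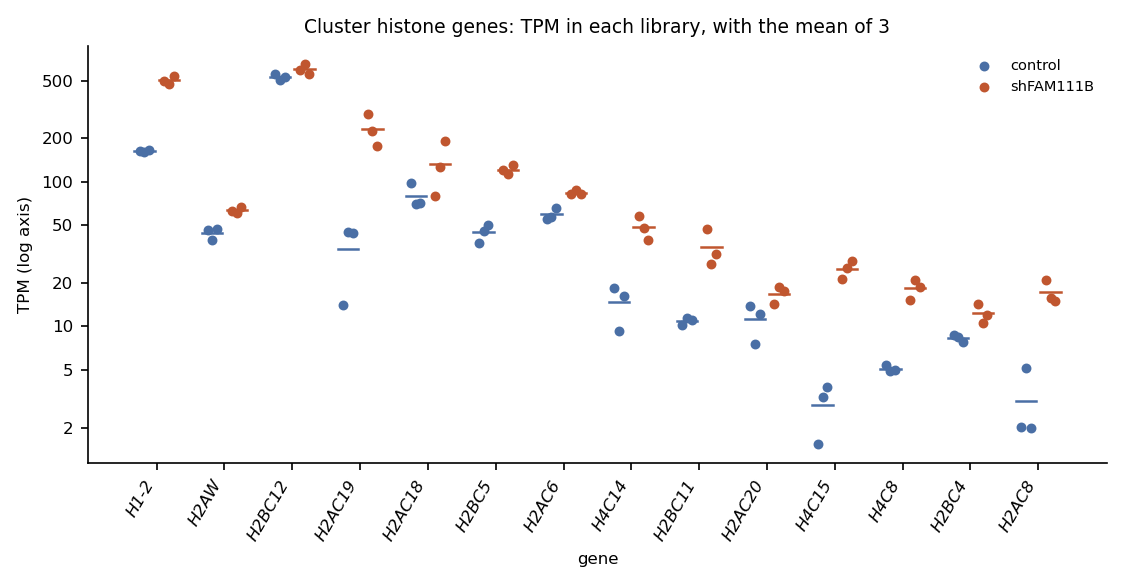
TPM on a log axis of H1-2, H2AW and the 12 clustered genes with the highest mean, a point per library and a line at the mean of 3. The points of H2BC12 almost meet at 556.96 and 558.09 TPM, and of the genes drawn only H2AC18 has overlapping groups.

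Clustered H3 and H4 genes had lower summed levels than the H2A and H2B genes, although H4C14, H4C15 and H4C8 were among the 12 clustered genes of highest mean. H3C10 rose from 2.07, 2.58 and 2.68 TPM to 7.27, 7.48 and 8.06 TPM (1.32 ± 0.117, adjusted p = 5.18e-05). H3C14 and H3C15, inverted copies on chromosome 1 with the same transcript sequence, were each listed at 0.75, 0.50 and 0.42 TPM and at 3.46, 3.11 and 2.58 TPM. Their identical rows (1.38 ± 0.154, adjusted p = 0.000166) are 1 measurement, and as a sum they had a log2 fold change of 1.75 ± 0.166 (adjusted p = 7.4e-05). Each row entered the test only through the shFAM111B libraries and could not have been called lower. The other 6 tested H3 genes (H3C1, H3C2, H3C3, H3C4, H3C6 and H3C13) had values of -0.02 to 1.09 and did not pass.

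H4C15 went from 1.54, 3.23 and 3.83 TPM to 21.32, 25.39 and 28.41 TPM (2.79 ± 0.245, adjusted p = 5.1e-05), and its near-identical copy H4C14 from 18.48, 9.30 and 16.16 TPM to 58.09, 47.94 and 39.31 TPM (1.69 ± 0.252, adjusted p = 0.000721). Since 97.2% and 97.5% of their stretches are shared, their sum is the firmer value. It was 20.02, 12.53 and 19.99 TPM in control and 79.41, 73.33 and 67.72 TPM in shFAM111B libraries (2.03 ± 0.176, adjusted p = 4.73e-05). H4C8, with no shared stretch, rose from 5.44, 4.90 and 5.00 TPM to 15.28, 20.79 and 18.88 TPM (1.65 ± 0.124, adjusted p = 2.5e-05). H4C12 was at 0.93, 2.13 and 3.82 TPM and at 10.73, 6.35 and 4.03 TPM (1.30 ± 0.409, adjusted p = 0.0238), with all of its stretches shared with other genes, mainly H4C11, and its adjusted call lost without control replicate 1 or 2 or shFAM111B replicate 1 or 2 (0.96 to 1.32). H4C1, H4C3 and H4C4 had values of -0.48 to 0.64 and did not pass, nor did the chromosome 12 gene H4-16 (0.18 ± 0.155, adjusted p = 0.316). When each of the 3 copy pairs was counted once, 11 clustered features in place of 13 were called higher.

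Not tested were 40 of the 95 histone genes. Of these, 10 were listed at 0 in every library, among them H2AC1 and H2BC1, known for their use in testis. Another 9 reached 1 TPM in some library, up to 2.49 TPM for H3C7 in shFAM111B replicate 1, against 0 in all control libraries. Among the 3 non-coding RNAs, H1-10-AS1 averaged 0.33 TPM in control and 1.38 TPM in shFAM111B cells, and the others stayed at or under 0.31 TPM. The germline variants H2AB1 to H2AB3, H1-7, H1-8, H2BW1 and H2BW2 were at or under 0.44 TPM.

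Of the replacement H2A genes, H2AZ1 and H2AZ2 encode the isoforms of H2A.Z, the variant at promoters, and H2AZ1 fell in TPM while H2AZ2 rose, though the sign of H2AZ1 turned under 3 scalings. H2AZ1 was at 650.34, 635.34 and 643.74 TPM in control and 578.59, 578.01 and 594.41 TPM in shFAM111B libraries (-0.14 ± 0.0365, adjusted p = 0.0109). That is 0.22 above the median tested gene, and H2AZ1 did not pass without shFAM111B replicate 1 (-0.13). The values that turned were those with median-of-ratios scaling (0.31), upper-quartile scaling (0.27) and the median subtracted (0.39). H2AZ2 rose from 133.38, 129.31 and 127.90 TPM to 218.19, 206.63 and 232.03 TPM (0.74 ± 0.054, adjusted p = 2.19e-05). The ratio of H2AZ1 to H2AZ2, which no scaling of a library changes, was 4.94 ± 0.0822 in control and 2.67 ± 0.119 in shFAM111B cells (SD, n = 3 each), and the groups did not overlap. The sum of both genes was 773 ± 9.65 TPM and 803 ± 21.5 TPM.

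H2AJ, an H2A variant on chromosome 12 (14774383 to 14778002, plus strand), rose from 92.03, 91.18 and 91.82 TPM to 213.09, 217.51 and 241.26 TPM (1.28 ± 0.0568, adjusted p = 4.06e-06). It had the largest change among the replacement genes proper and shared no 50-base stretch with another gene. H2AX, the variant that is phosphorylated at DNA breaks and the 1 replacement gene with an annotated stem-loop, rose from 118.91, 124.37 and 137.61 TPM to 182.78, 157.77 and 189.00 TPM (0.47 ± 0.0856, adjusted p = 0.00199). The macroH2A genes, whose products carry a large extra domain and mark silent chromatin, were lower in TPM, with signs that turned under some scalings. MACROH2A1 was at 103.73, 100.16 and 102.29 TPM and at 74.77, 75.79 and 66.23 TPM (-0.49 ± 0.0629, adjusted p = 0.000324). MACROH2A2 was at 37.59, 39.33 and 46.76 TPM and at 29.31, 29.07 and 35.33 TPM (-0.39 ± 0.11, adjusted p = 0.0156), and did not pass without shFAM111B replicate 1 (-0.35). Both lay within 0.13 of the median tested gene, and the values that turned were, for MACROH2A1, 0.04 with the median subtracted and 0.13 with the length trend removed, and, for MACROH2A2, 0.01 to 0.14 under 3 scalings.

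H3-3A and H3-3B encode the same protein, H3.3, which is deposited outside S phase. H3-3B rose from 329.03, 324.84 and 392.20 TPM to 518.37, 507.13 and 516.43 TPM (0.56 ± 0.0756, adjusted p = 0.000422). H3-3A rose from 444.26, 443.60 and 458.00 TPM to 502.64, 539.14 and 519.64 TPM (0.21 ± 0.0426, adjusted p = 0.00313), but turned to -0.20 under quantile normalization and did not pass under protein-coding rescaling (0.09) or with the length trend removed (0.08). The ratio of H3-3B to H3-3A went from 0.776 ± 0.0693 to 0.989 ± 0.0456. CENPA, the centromeric H3 variant and no member by name, was at 16.14, 12.09 and 15.31 TPM and at 15.20, 15.67 and 15.20 TPM (0.09 ± 0.112, adjusted p = 0.514).

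**Figure D4:**
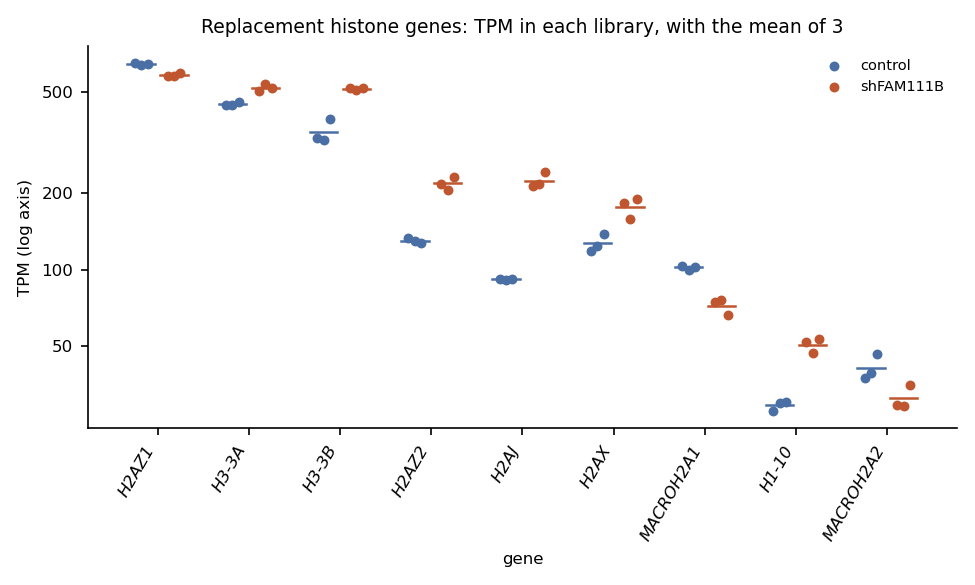
TPM on a log axis of 9 of the 10 tested replacement genes proper, a point per library and a line at the mean of 3. No gene drawn has overlapping groups. H2AZ1, MACROH2A1 and MACROH2A2 are lower in shFAM111B cells and the other 6 drawn are higher.

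Summed over genes, the cluster-type genes made up a larger part of the histone TPM in shFAM111B cells. The 60 clustered genes summed to 891.91, 834.51 and 889.04 TPM in control and 1478.41, 1494.80 and 1395.13 TPM in shFAM111B libraries, a log2 ratio of means of 0.74. Without H2BC12 the sums were 340 ± 16.3 TPM and 857 ± 26.2 TPM (SD, n = 3 each), a log2 ratio of 1.34. The 21 replacement genes proper summed to 2018 ± 58.7 TPM and 2460 ± 50.7 TPM, a log2 ratio of 0.29. The ratio of the sum of cluster-type genes of both names to the sum of replacement genes proper was 0.536 ± 0.0146 in control and 0.825 ± 0.0256 in shFAM111B cells, and it ran from 0.526 to 0.553 and from 0.796 to 0.841 with no overlap. By the name rule alone the ratio was 0.391 ± 0.011 and 0.48 ± 0.0305. By family, the clustered sums went from 207 ± 10.4 to 512 ± 6.39 TPM for H2A, from 613 ± 22.1 to 797 ± 36.1 TPM for H2B, from 20.9 ± 2.78 to 41.3 ± 7.78 TPM for H3 and from 31.1 ± 6.52 to 105 ± 11 TPM for H4. In bulk RNA, more cells in S phase and more histone RNA per cell cannot be told apart.

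**Figure D5:**
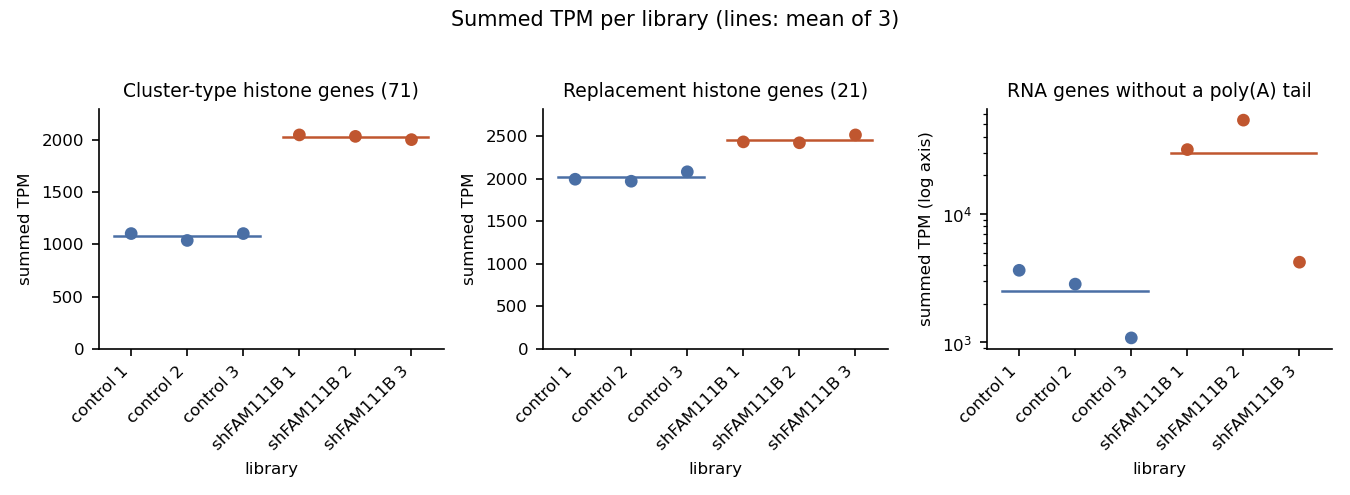
Summed TPM per library of the 71 cluster-type genes, the 21 replacement genes proper and RNA genes without a poly(A) tail (log axis), with lines at the means of 3. The histone sums of the 3 shFAM111B libraries are close together, whereas RNA without a poly(A) tail in shFAM111B replicate 3, at 4217 TPM, lies near control replicate 1, at 3647 TPM.

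The libraries were made by poly(A) selection, which most stem-loop mRNAs should not pass, and RNA without a poly(A) tail differed between the groups. In shFAM111B replicate 3, where such RNA summed to 4217 TPM against 31741 and 53812 TPM in replicates 1 and 2, the clustered genes summed to 1395 TPM, against 1478 and 1495 TPM. H1-2 was highest of the 3 in that library (538.65 TPM). The sum of the copies H2AC18 and H2AC19 was 367.41 TPM there, against 373.16 and 351.53 TPM in replicates 1 and 2. That of H4C14 and H4C15 was 67.72 TPM, against 79.41 and 73.33 TPM. H2AC8 was at 14.96 TPM, against 21.09 and 15.61 TPM. The part of RNA without a poly(A) tail in the histone values was not tested. Of the 19 tested clustered genes with an annotated transcript that holds a polyadenylation hexamer (AATAAA or ATTAAA) in its last 40 bases, 10 were called higher, 14 rose and the median log2 fold change was 1.03. Of the 20 tested clustered genes with no such transcript, 3 were called higher, 7 rose and the median was 0.49. Over all tested genes 6.82% were called higher and 21.1% rose. The class with a hexamer counts both genes of each near-identical copy pair above. In 26 of the 58 clustered genes, tested or not, every transcript model stops at the coding sequence, so their 3′ end could not be searched. Where tested, these count as genes with no such transcript. Among all genes with protein-coding transcripts 80.746% had such a hexamer. The part of the hexamer itself in this was not tested.

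Short genes as a whole were higher in shFAM111B cells. Of all tested genes with a longest transcript of at most 1000 bases, 24.5% were called higher, with a median log2 fold change of 0.43, against 4.71% and -0.44 for longer ones. Of the 24 tested clustered genes in the short class 6 were called higher, a share near that background, with a median of 0.58. Of these 24, 10 rose, against 624 of all 1484 tested short genes, again a share near the background. Of the 15 clustered genes in the longer class, 7 were called higher and 11 rose, with a median of 0.99. Of all 12779 tested longer genes, 2389 rose. The 7 include H2BC9, H3C14 and H3C15, which entered the test only through the shFAM111B libraries. With the length and expression trend removed over all genes, 11 of the 15 called histone genes stayed called and H2AC17, H2BC5, H4C12 and H1-2 did not, and the median of the clustered genes was 0.26 (without H3C2 and H3C3, whose length is not known here). The replacement genes proper had a median of 0.38 in that fit, above that of the clustered genes. H2BC12 and H4C1 were called lower in it. The lengths are those of GENCODE v29, which need not be those behind the deposited TPM. The part of transcript length in these differences was not tested beyond these values.

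By position, the 10 tested clustered genes on chromosome 1 had 5 called higher and 8 that rose, with a median of 1.18, and 3 pairs among them are the near-identical copies above. The 29 on chromosome 6 had 8 called higher and 13 that rose, with a median of 0.54. For these counts and the next, the shares over all tested genes were 6.82% called higher, 23.7% called lower, 21.1% risen and 50.9% fallen. In the cluster span on chromosome 6 (25726132 to 27893843), 19 other genes were tested, of which 3 were called higher and 3 lower, 4 rose and 13 fell, with a median of -0.70. Among the called ones, ZNF184, a zinc finger gene, was lower (-1.15 ± 0.137, adjusted p = 0.000232). AL021807.1, a long non-coding RNA gene, was higher (2.60 ± 0.161, adjusted p = 1.15e-05). So was AL031777.2 (2.11 ± 0.262, adjusted p = 0.000283), whose gene identifier GENCODE v29 gives to a gene that overlaps H2AC7 and H3C4 on the same strand.

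Head-to-head partners had the following values, and the differences within pairs were not tested. H2BC4 and H2AC6 had log2 fold changes of 0.51 and 0.50, and H2BC21 and H2AC20 of 0.98 and 0.58. H2BC8 and H2AC8, whose shared sequence is printed above, had 0.99 and 2.24, and both rose. H2BC11 and H2AC11 had 1.57 and 0.11, with H2AC11 between 1.21 and 1.64 TPM in all 6 libraries and not past the threshold (adjusted p = 0.465). H2AC13 rose by 0.72 while H2BC13 had -0.37 ± 0.432 (adjusted p = 0.467), and H2AC17 rose by 1.31 beside -0.00 for H2BC17.

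Genes that process, carry and deposit histones or work in S phase are given as lists, whose counts depend on the scaling. Of 17 tested genes for histone pre-mRNA 3′ processing, none was called higher and 4 lower, 2 rose and 13 fell, with a median of -0.45. The 4 of 17 called lower are near the 23.7% of all tested genes called lower. SLBP, which binds the stem-loop, fell from 111.05, 102.46 and 106.14 TPM to 61.69, 71.78 and 66.93 TPM (-0.67 ± 0.0677, adjusted p = 0.000103). The called genes with the smallest p were ERI1, a nuclease that trims the histone mRNA end (-1.30 ± 0.0855, adjusted p = 1.43e-05), NPAT, the coactivator of clustered histone genes (-1.38 ± 0.166, adjusted p = 0.000239), and ZNF473, a zinc finger protein of the processing complex (-1.11 ± 0.136, adjusted p = 0.000273). With the length and expression trend removed, ERI1 was at -0.53, NPAT at -0.67 and ZNF473 at -0.35, under the 2-fold limit. LSM10, a subunit of the U7 particle, rose by 0.57.

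Of 27 tested histone chaperone and deposition genes, none was called higher and 8 lower (against 23.7% of all tested genes), 1 rose and 20 fell, with a median of -0.78. SRCAP, the motor of an H2A.Z deposition complex, fell by 2.73 on the log2 scale (adjusted p = 6.54e-06). ATRX, which works with DAXX on H3.3, fell by 1.99 (adjusted p = 6.82e-06). ASF1A, an H3-H4 chaperone, fell by 1.33 (adjusted p = 1.9e-05). With the length and expression trend removed, SRCAP was at -1.87, ATRX at -0.97 and ASF1A at -1.05. The 1 that rose was SUPT6H (0.31 ± 0.0622, adjusted p = 0.00342). Of 30 tested S phase genes, none was called higher and 6 lower, 1 rose (E2F1, 0.28) and 21 fell, with a median of -0.67. The 6 of 30 are likewise near that background. CCNA2, the S phase cyclin, was at 57.98, 59.05 and 57.64 TPM in control and 27.05, 28.69 and 25.45 TPM in shFAM111B libraries (-1.08 ± 0.061, adjusted p = 8.25e-06). UHRF1 (-1.78) also fell, while TYMS (0.02) and TK1 (-0.02) did not pass. With the length and expression trend removed, CCNA2 was at -0.72 and UHRF1 at -1.07. These medians lay 0.09 (processing), 0.42 (chaperones) and 0.30 (S phase) under the median tested gene, and 50.9% of all tested genes fell. With the median subtracted, which moves all genes up most, 5 processing genes were higher and 6 lower at an adjusted p under 0.05, 9 chaperone genes higher and 12 lower, and 12 S phase genes higher and 12 lower. With the length and expression trend removed, the counts were 3 and 6 for processing, 5 and 11 for chaperones, and 4 and 16 for S phase. The medians were then 0.0, -0.17 and -0.17, and that of all tested genes was -0.02.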

How the data were processed

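RNA was sequenced by the authors from Huh7 control and shFAM111B cells (3 libraries each). The labels describe poly(A) selection with a stranded mRNA kit, and the paper names a TruSeq kit. The submitters' processing notes name RSEM, DESeq2 and hg38, without versions or order. The authors deposited TPM per gene. Their own comparison columns (a fold change as a ratio, its log2, and p-values) hold the paper's findings and were not used. TPM keep no counts, so depth is unknown and no count test was run. The TPM of the listed genes summed to 978634 to 997094 per library.

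Log2(TPM + 1) of the 14394 genes listed at 1 TPM or above in 3 or more of the 6 libraries was compared with limma 3.58.1 (lmFit, eBayes with a trend, no covariates) in R 4.3.3, with Benjamini-Hochberg adjustment over all of them. The script was tested on simulated data. The members and gene lists were chosen with earlier results of these data known. Named genes were FAM111B, every replacement gene with a mean of at least 1 TPM in a group, the 12 clustered genes of highest mean, up to 12 other called clustered genes, and the 3 called genes of smallest P of each other list, of which 1 replacement gene and 1 S phase gene are not reported here. Sums over members carry no test.

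GENCODE v29 (GRCh38) gave positions and transcripts for 58420 of the 60666 genes and 93 of the 95 members (not H3C2 and H3C3). The annotation behind the deposited TPM is not named, so its transcript models may differ from those used here for lengths, 3′ ends and shared stretches. Of the replacement genes, 17 of 21 matched a RefSeq promoter. Python 3.11.15 with pandas 2.3.3, numpy 2.4.6 and matplotlib 3.10.9 made the tables and figures. Alternatives were other filters, a pseudocount of 0.1, scalings, quantile normalization, removal of a loess trend with length and expression, a replicate block, each library left out, and, added after seeing the data, near-identical copies summed.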

Additional observations from a re-analysis of the deposited data

How the results depend on the processing

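The count of clustered genes called higher (13) was within 1.5 times of this, at 9 to 19, under the filters, the pseudocount, protein-coding rescaling, upper-quartile scaling, the trend removal, the replicate block, each library left out and summed copies. With median-of-ratios scaling it was 21, with 5 replacement genes by name and 2031 of all genes called higher and 1799 lower. With upper-quartile scaling 4 replacement genes were called higher, and 1899 of all genes higher and 1910 lower. With quantile normalization 22 clustered genes were called higher, and 1694 of all genes higher and 1849 lower. With the median subtracted the counts were 26 clustered, 7 replacement, 2597 of all genes higher and 1305 lower. At 1 TPM in every library 634 of all genes were called higher. With the length and expression trend removed 2 clustered genes and 1303 of all genes were called lower. At an adjusted p with no fold limit, 21 clustered, 9 replacement and 3044 of all genes were higher, and 3 replacement and 7326 of all genes lower. With the renamed cluster genes counted as clustered, 1 replacement gene was called higher. Of all calls 22.3% were higher, against 53.0% with median-of-ratios, 49.9% with upper-quartile, 47.8% with quantile, 66.6% with median subtraction and 51.2% with the trend removed. The log2 ratio of sums moved to 1.2, 1.16 and 0.62 (clustered) and 0.90, 0.86 and 0.32 (replacement by name) with median-of-ratios, upper-quartile and protein-coding scaling, and to 1.34 without H2BC12 and 0.63 without H2AZ1. The sign turned for H2AZ1 (0.31, 0.27 and 0.39 with median-of-ratios, upper-quartile and median subtraction), MACROH2A2 (0.05, 0.01 and 0.14 in the same order), MACROH2A1 (0.04 with median subtraction, 0.13 with the trend removed), H3-3A (-0.20) and H2BC12 (-0.26) under quantile normalization, and, with the trend removed, H2AW (-0.07), H2BC12 (-1.12), H2AC18 (-0.52), H2AC20 (-0.77), H2BC4 (-0.25), H2AC16 (-0.19) and 6 genes that had not passed (H2AC4, H2AC7, H2AC12, H2AC14, H3C1 and H4C4, at -0.76 to -0.11). The cause was not tested.

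The replicate numbers do not pair the libraries (same-number correlations of deviations of 0.054, 0.0349 and 0.0908). With them as a block 996 genes were called higher and 3410 lower, and all 15 histone calls remained, while H2AC20 and H4C12 lost their adjusted p under 0.05. TPM hold no depth, so what low genes could show is not known.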
